A study of Tigriopus californicus with 32 samples.

Results

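Bird Rock (BR-S) is a southern California population of the splashpool copepod Tigriopus californicus, and the question here was how adults raised under a daily temperature cycle changed their transcripts when the warm part of the day began. The comparison was 28V vs. 20V, chosen by population and treatment from the sample labels and not from any measured value. It used 4 of the 32 RNA-seq libraries of a series that covers 4 populations and 4 treatments, and 17554 genes, which the authors had kept because 2 or more libraries of the comparison reached 2 cpm. Of these, 11522 were genomic transcripts (GTs, with IDs that begin with TCALIF) and 6032 were de novo transcripts (DNTs, with IDs that begin with comp or Contig).

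Copepods of both groups were born and raised in the variable regime, with 12 h at 20° and 12 h at 28° each day. The 20V pools were taken at the end of the cool period and the 28V pools 2 h after the shift to 28°, so that temperature and sampling time cannot be told apart. Each treatment had 2 pools from separate dishes, and a pool held 100 whole adults, 50 males and 50 females. The p-values therefore rest on the spread between pools, most of it estimated across genes and not within each gene. In whole animals, a lower value can come from fewer cells of a type or from less RNA per cell, and the 2 cannot be told apart. In the nonvariable regime, used for reference, copepods were raised at a constant 20° (20NV) and exposed to 28° for 2 h (28ST).

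Heat-shock proteins (HSPs) are chaperones that hold or refold proteins unfolded by heat. HSP70 and HSP90 work with ATP and with co-chaperones such as the HSP40 family, and small HSPs hold unfolded proteins without ATP. The endoplasmic reticulum has its own HSP70, the 78-kDa glucose-regulated protein (GRP78), which is induced together with other folding factors in the unfolded protein response. Splashpool copepods meet large daily temperature swings in nature.

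The 4 libraries held between 3646890 and 13461077 uniquely mapped reads in the 17554 genes kept, which is less than all their mapped reads. Values are given as normalised values, which are cpm scaled by the trimmed mean of M-values (TMM). Library names with and without a final R set the 2 blocks, called b and a, that stand in for the sequencing lane. Values of a treatment are given with block a first. A single undescribed DNT, Contig5617_7182, took 16.1 and 12.4% of the reads in 20V and 18.3 and 7.34% in 28V. The 20V library of block b stood apart, with 35 genes more than 5-fold below the lowest of the other 3 libraries, against 0 or 1 genes in each of these, and none of the 33 genes called below was among the 35. In the paper the deeper 28V library had the lowest share of mapped reads of all BR-S libraries. The part that this had in the changes was not tested. Muscle, yolk and eye markers were detected in all 4 libraries.

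Between 28V and 20V, 33 genes were differentially expressed (DE) at a Benjamini-Hochberg adjusted p under 0.05 in limma with the block in the model, 25 upregulated in 28V and 8 downregulated. This was 0.188% of the genes tested (0.142% up and 0.0456% down), and 1020 genes had an unadjusted p under 0.05. Changes are differences of mean log2(normalised value + 1), 28V minus 20V, with their standard error. They ran from 1.11 to 3.13 in the upregulated genes, while the median over all genes was -0.01. In each of the 33 genes the 28V libraries did not overlap the 20V libraries, a separation that 13.4% of all genes showed upward and 16% downward.

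The number of calls depended on the model. In limma it was 0 without the block (521 at an unadjusted p under 0.05), 0 in a joint fit of the 8 BR-S libraries with the block (731) and 4 without the variance trend, while the called genes that each fit held kept their direction. The edgeR quasi-likelihood test gave 23 DE genes (0.131%), 19 up (0.108%) and 4 down (0.0228%). The edgeR likelihood ratio test gave 100 (0.57%), 66 up (0.376%) and 34 down (0.194%). Without the TMM step limma gave 9 calls, 8 up and 1 down. Reads were mapped first to GTs and the rest to DNTs, so a DNT that carries the description of a GT may be a piece or a copy of the same gene, and such pairs are not independent.

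**Figure D1:**
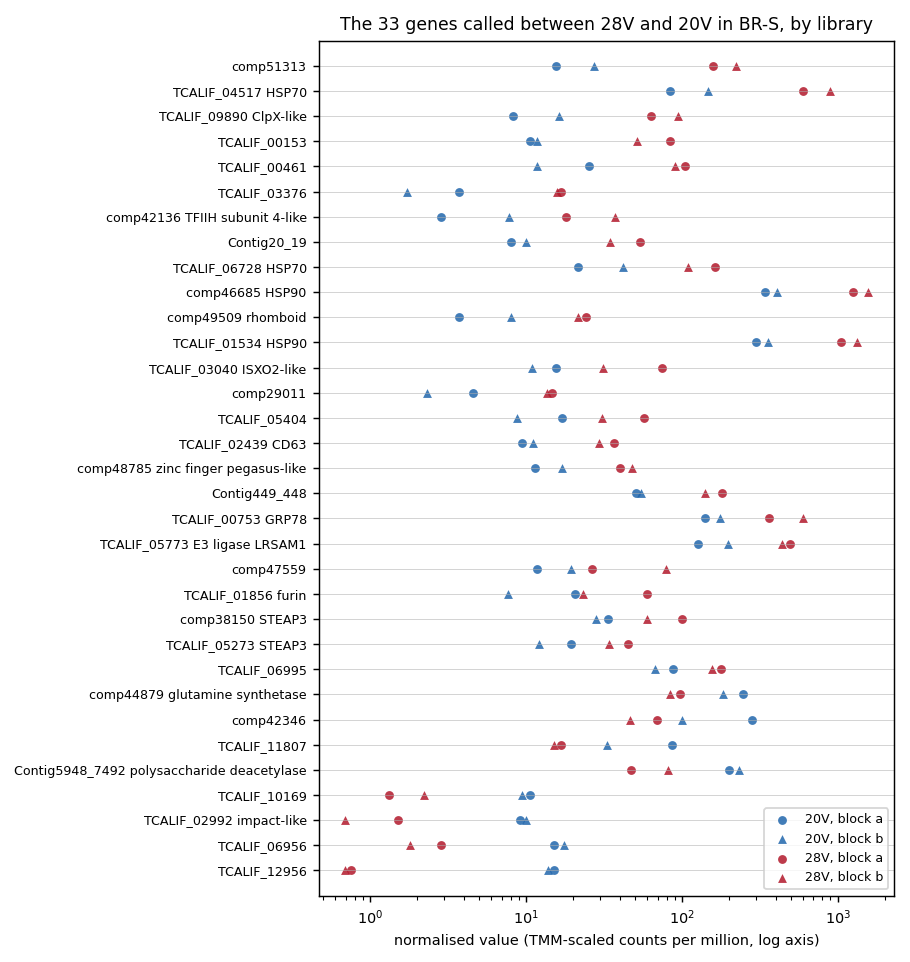
Normalised values (TMM-scaled cpm, log axis) of the 33 DE genes in the 2 libraries of 20V (blue) and the 2 libraries of 28V (red), with circles for block a and triangles for block b, ordered by log2 change. Red and blue symbols do not overlap within any gene, and the values reach from 0.698 in 28V for TCALIF_12956 to 1572 in 28V for the HSP90 gene comp46685_c0_seq1_33583.

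**Figure D2:**
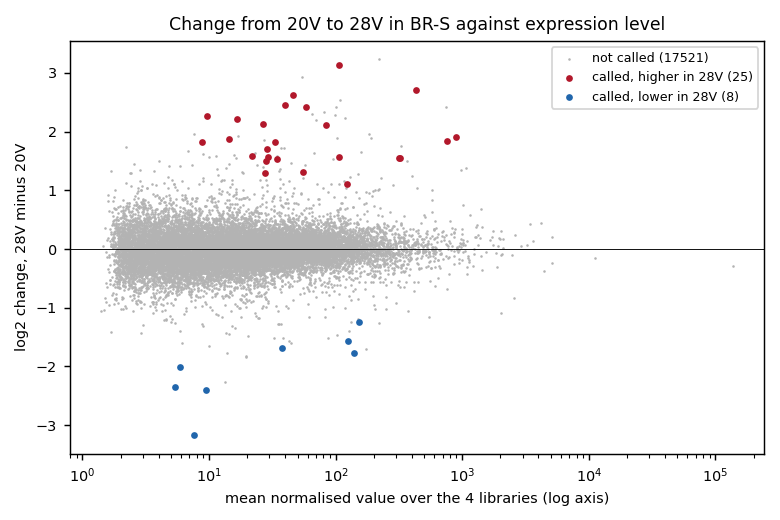
Log2 change from 20V to 28V of all 17554 genes (y axis) against their mean normalised value over the 4 libraries (log x axis), with the 25 upregulated genes in red, the 8 downregulated genes in blue and the others in grey. The upregulated genes lie across low and high levels.

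Cytosolic chaperones were prominent among the upregulated genes. The HSP70 gene TCALIF_04517 had normalised values of 84.3 and 147 in 20V and 596 and 893 in 28V. Both warm pools were far above both cool pools, with a log2 change of 2.70 ± 0.18 (adjusted p = 0.000206). A second HSP70 gene, TCALIF_06728, had 21.6 and 42.3 in 20V and 165 and 109 in 28V, a log2 change of 2.11 ± 0.30 (adjusted p = 0.0208). Its change was 2.87 in block a and 1.35 in block b, the widest gap between blocks among the 33 genes.

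Of the 8 genes of the HSP70 and HSP110 families in the table, these 2 were called, and all 8 had positive changes with a median of 0.73. HSP70 gene TCALIF_03946 had 410 and 417 in 20V and 651 and 838 in 28V, which did not overlap but did not pass the test (log2 change 0.84 ± 0.20, adjusted p = 0.268). TCALIF_09482, also an HSP70, had 14.4 and 10.1 in 20V and 21.1 and 23.9 in 28V (log2 change 0.85 ± 0.25, adjusted p = 0.494).

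HSP90, which folds signalling proteins and regulates the heat-shock transcription factor, was represented by 3 genes, 2 of them called. The DNT comp46685_c0_seq1_33583 had normalised values of 344 and 410 in 20V and 1264 and 1572 in 28V, a log2 change of 1.91 ± 0.20 (adjusted p = 0.00428). The GT TCALIF_01534 had 299 and 358 in 20V and 1054 and 1324 in 28V, a log2 change of 1.85 ± 0.20 (adjusted p = 0.00428). The blocks moved nearly alike, by 1.88 in block a and 1.94 in block b for the DNT and by 1.81 in block a and 1.88 in block b for the GT. The third HSP90 gene, comp41334_c0_seq1_26338, had 233 and 346 in 20V and 562 and 605 in 28V, and its change of 1.03 ± 0.20 did not pass the test (adjusted p = 0.0955).

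Small HSPs gave no call. All 9 had positive changes with a median of 0.48. In 7 of them both warm pools were above both cool pools, compared with 21.5% of genes with a description and 13.4% of all genes. TCALIF_10081 (HSP beta-1) came nearest, with 2.01 and 2.44 in 20V and 6.67 and 19.3 in 28V (log2 change 1.95 ± 0.34, adjusted p = 0.0591), and the likelihood ratio test called it (adjusted p = 1.05e-06). The small HSP TCALIF_06394 had 217 and 264 in 20V and 268 and 334 in 28V (log2 change 0.32 ± 0.18, adjusted p = 0.965). In HSP40 and other co-chaperones, 0 of 16 genes were called and the median change was 0.34, with 14 positive. The HSP40 gene comp32785_c0_seq1_17987 had 5.47 and 11.5 in 20V and 10.9 and 33.4 in 28V, where the treatments overlapped.

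Folding genes outside the cytosol gave 2 calls. GRP78 (TCALIF_00753), the HSP70 of the endoplasmic reticulum, had 142 and 177 in 20V and 366 and 602 in 28V, a log2 change of 1.56 ± 0.19 (adjusted p = 0.00902). It was the 1 gene called of 8 in the list of endoplasmic reticulum folding and unfolded protein response, where 7 changes were positive and the median was 0.84. X-box binding protein 1 (XBP1, TCALIF_09115), a transcription factor of that response, had 53.2 and 50.2 in 20V and 103 and 113 in 28V. The pools of each treatment were close, and the change of 1.04 ± 0.18 missed the threshold in limma (adjusted p = 0.0625) and passed it in the likelihood ratio test (adjusted p = 0.0158). Protein disulfide isomerase A6 (TCALIF_11129), which forms disulfide bonds in secreted proteins, had 115 and 141 in 20V and 204 and 239 in 28V (adjusted p = 0.192).

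TCALIF_09890 encodes a mitochondrial-like ClpX, the ATP-driven unfoldase subunit of the Clp protease. It had 8.34 and 16.2 in 20V and 63.2 and 95.3 in 28V, a log2 change of 2.63 ± 0.21 (adjusted p = 0.000542), and it was called under each of the 9 alternative settings that kept the block and fitted these 4 libraries alone. The other 16 genes of chaperonins and mitochondrial folding were not called, and the median over all 17 was 0.44. Subunits of the cytosolic chaperonin TCP-1, which folds actin and tubulin, were among them, and the delta subunit TCALIF_02099 had 86.9 and 83.4 in 20V and 116 and 131 in 28V (log2 change 0.53 ± 0.18, adjusted p = 0.662).

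Descriptions come from the lists that the study printed of its own results, and they covered 2921 of the 17554 genes (16.6%). These lists favour genes that responded, and 22 of the 2921 described genes were called (0.753%, with 0.616% up and 0.137% down), with a median change of 0.08. The counts per list are read against that share and against the median of -0.01 over all genes. Changes were positive in 1768 of the 2921 described genes and in 8356 of all 17554 genes. Of the 10 genes in the table that the study listed as shared by 4 populations for 28V vs. 20V, 7 were called here, all up. Since that list was chosen on these samples, its counts are not independent evidence of a direction.

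**Figure D3:**
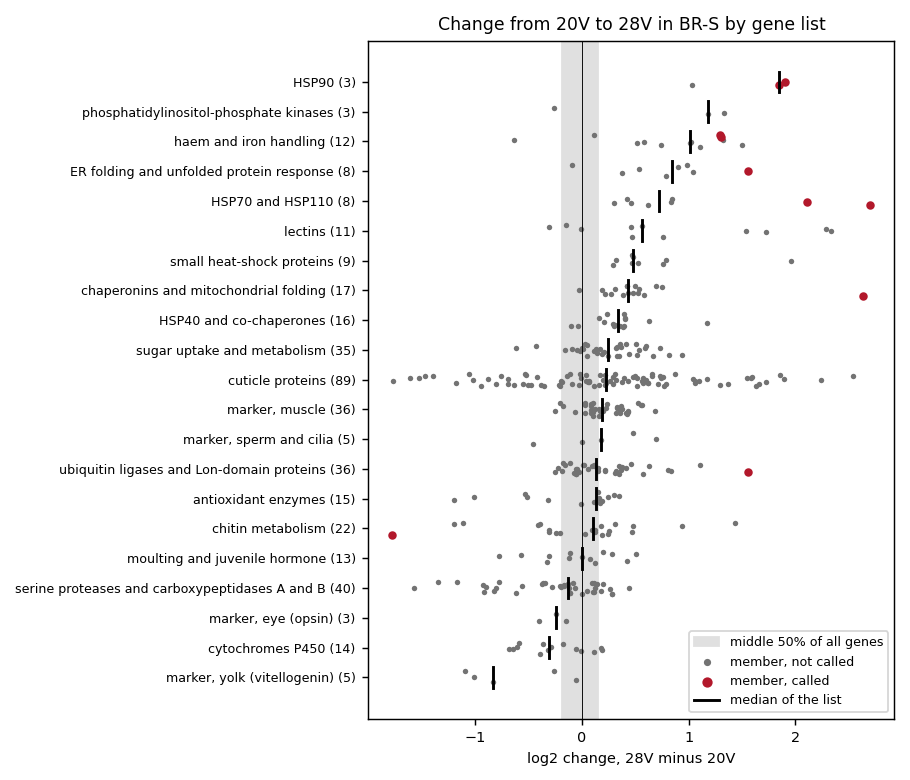
Log2 change from 20V to 28V (x axis) of the members of each gene list (rows), with the number of members in the table in parentheses, called members in red, the others in grey, the median of each list as a black bar and the middle 50% of all genes as a grey band. The medians of 13 of the 21 lists lie above the band, the highest being HSP90 (1.85), phosphatidylinositol-phosphate kinases (1.19) and haem and iron handling (1.01), and those of yolk (-0.83), cytochromes P450 (-0.30) and opsins (-0.24) lie below it. List members are described genes, whose own middle 50% ran from -0.13 to 0.30. The medians of cuticle proteins, muscle, sugar uptake and metabolism, and sperm and cilia lie inside that range.

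Of the genes of haem and iron handling, 2 were upregulated. Both are described as STEAP3, a metalloreductase that reduces iron for uptake into cells in mammals. The DNT comp38150_c0_seq1_22653 had 33.7 and 28.2 in 20V and 101 and 59.5 in 28V, with a log2 change of 1.31 ± 0.20 (adjusted p = 0.0390). The GT TCALIF_05273 had 19.6 and 12.2 in 20V and 45.5 and 34.1 in 28V, with a log2 change of 1.30 ± 0.21 (adjusted p = 0.0476). Both calls were near the threshold, and neither held at a pseudocount of 0.5 or 5.

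Heme-binding proteins came next, without passing the threshold. TCALIF_01798 had 135 and 258 in 20V and 574 and 485 in 28V (log2 change 1.5 ± 0.26, adjusted p = 0.0583), and TCALIF_03888 had 164 and 129 in 20V and 302 and 290 in 28V (log2 change 1.02 ± 0.18, adjusted p = 0.0659). In 10 of the 12 genes of the list both warm pools were above both cool pools, compared with 21.5% of the described genes and 13.4% of all genes. The list had 11 positive changes and a median of 1.01.

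The ubiquitin ligase list and 2 genes of no list that are described as proteases or their relatives gave 3 further calls. TCALIF_05773, described as the E3 ubiquitin ligase LRSAM1, had 128 and 198 in 20V and 496 and 443 in 28V, a log2 change of 1.56 ± 0.22 (adjusted p = 0.0208). It was the 1 called gene of 36 in the list of ubiquitin ligases and Lon-domain proteins, whose median was 0.13. Furin (TCALIF_01856), a protease that cleaves proproteins in the secretory pathway, had 20.7 and 7.65 in 20V and 60.4 and 23.3 in 28V, and its change was 1.49 ± 0.21 (adjusted p = 0.0223). The blocks differed in level but not in the change, which was 1.5 in block a and 1.49 in block b. The rhomboid family gene comp49509_c0_seq3_39872, of a family of membrane proteases and their inactive relatives, had 3.74 and 8 in 20V and 24.4 and 21.6 in 28V (adjusted p = 0.0410). TCALIF_01587, with a Lon N-terminal domain and a RING finger, had 61.6 and 73.2 in 20V and 146 and 145 in 28V and missed the threshold (log2 change 1.1 ± 0.18, adjusted p = 0.0522).

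Regulators and a membrane protein were also upregulated. The DNT comp42136_c0_seq1_27295, similar to subunit 4 of the general transcription factor IIH, had 2.88 and 7.77 in 20V and 18.1 and 37.6 in 28V, a log2 change of 2.22 ± 0.25 (adjusted p = 0.00483). A gene similar to the zinc finger protein pegasus, comp48785_c0_seq1_38031, had 11.5 and 17.2 in 20V and 40.4 and 47.8 in 28V (log2 change 1.58 ± 0.21, adjusted p = 0.0160). TCALIF_02439, described as CD63, a tetraspanin of endosomes and lysosomes, had 9.49 and 11.1 in 20V and 36.8 and 29.4 in 28V (log2 change 1.59 ± 0.24, adjusted p = 0.0272). In each of these the lower warm pool was above the higher cool pool.

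The largest upward change among the called genes belonged to one with no description. The DNT comp51313_c0_seq1_44507 had 15.5 and 27.3 in 20V and 158 and 225 in 28V, a log2 change of 3.13 ± 0.19 (adjusted p = 0.000111). Its changes were 3.26 in block a and 3 in block b, and it too passed in each of the 9 alternative settings with the block and these 4 libraries alone. Further upregulated genes with no description were TCALIF_00461, TCALIF_03376, Contig20_19, comp29011_c1_seq1_15625, Contig449_448 and comp47559_c0_seq5_35364, with log2 changes of 2.42, 2.27, 2.14, 1.82, 1.58 and 1.53. TCALIF_00153 (2.45), TCALIF_05404 (1.70) and TCALIF_06995 (1.11) had a description that names no function, and TCALIF_03040 (1.82) was described by an ISXO2-like domain.

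Among the 8 downregulated genes were glutamine synthetase and a polysaccharide deacetylase. Glutamine synthetase (comp44879_c0_seq1_30799), which binds ammonia to glutamate, had 248 and 185 in 20V and 97.7 and 83.8 in 28V and fell by 1.23 ± 0.18 on the log2 scale (adjusted p = 0.0245). The deacetylase Contig5948_7492, of an enzyme family that includes chitin deacetylases, had 200 and 232 in 20V and 47.6 and 81.4 in 28V and fell by 1.77 ± 0.20 on the log2 scale (adjusted p = 0.00483). In both genes both cool pools were above both warm pools.

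The largest downward change was that of TCALIF_12956, which has no description. It had 15.2 and 13.8 in 20V and 0.762 and 0.698 in 28V, which stand for 53 and 119 reads and for 4 and 10 reads, and it fell by 3.16 ± 0.29 on the log2 scale (adjusted p = 0.00209). TCALIF_06956, with no description, had 15.2 and 17.6 in 20V and 2.86 and 1.81 in 28V (adjusted p = 0.00902), and the impact-like gene TCALIF_02992 had 9.20 and 9.97 in 20V and 1.52 and 0.698 in 28V (adjusted p = 0.0160). IMPACT in mammals and its relative in yeast restrain a kinase that slows translation when amino acids are scarce. TCALIF_10169, described as a threonine-rich protein anchored to the membrane by a lipid, had 10.6 and 9.51 in 20V and 1.33 and 2.23 in 28V (adjusted p = 0.0321). All of these were low-level genes with clearly separated pools.

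For the last 2 downregulated genes the level in 20V differed between the pools. TCALIF_11807 had 86.3 and 33.1 in 20V and 16.9 and 15.1 in 28V and fell by 1.68 ± 0.27 on the log2 scale (adjusted p = 0.0469). The undescribed DNT comp42346_c0_seq1_27571 had 282 and 101 in 20V and 69.1 and 46.5 in 28V and fell by 1.56 ± 0.23 (adjusted p = 0.0245). In each the change was larger in block a, with -2.28 in block a and -1.08 in block b for TCALIF_11807 and -2.01 in block a and -1.10 in block b for the DNT.

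Cuticle proteins, which form the exoskeleton together with chitin, gave 0 calls among 89 genes in limma and went in both directions. The likelihood ratio test called 4 of them, all lower in 28V and all described as cuticle protein 7 or as similar to it. The first, comp48306_c0_seq1_36978, had 99.2 and 38.0 in 20V and 20.8 and 18.4 in 28V (log2 change -1.61 ± 0.27, adjusted p = 0.0535 in limma). TCALIF_12674 had 232 and 82.3 in 20V and 51.6 and 47.0 in 28V (log2 change -1.47 ± 0.28, adjusted p = 0.0808). In these genes 20V of block a was by far the highest library.

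The median over the 89 cuticle genes was 0.23, and it was -0.66 in block a and 0.92 in block b. The summed value of the list was 11993 and 3045 in 20V and 7029 and 5713 in 28V, so the 28V pools lay between the 20V pools. Several cuticle genes were nearly missing from the 20V pool of block b alone, among them TCALIF_10120 with 150 and 5.92 in 20V and 201 and 114 in 28V. Lectins, sugar-binding proteins often tied to immune defence, gave the same picture, with 0 of 11 called, a median of 0.56, and block medians of -0.33 and 1.78. The C-type lectin TCALIF_07916 had 176 and 0.232 in 20V and 73.9 and 72.8 in 28V. In the summed lectin values too, 743 and 71.8 in 20V and 548 and 337 in 28V, the warm pools lay between the cool pools. The part that the spread between the 20V pools had in both medians was not tested.

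Chitin metabolism gave 1 call in 22 genes, the deacetylase above, and a median of 0.11. A chitinase 3-like gene, TCALIF_13280, had 2.88 and 3.94 in 20V and 14.7 and 7.96 in 28V (log2 change 1.44 ± 0.33, adjusted p = 0.202). The chitin-binding peritrophin TCALIF_13279 had 44.3 and 27.6 in 20V and 90.8 and 50.9 in 28V (log2 change 0.94 ± 0.19, adjusted p = 0.116). Both of these were called by the likelihood ratio test. Their values were also uneven between the pools of 28ST, with 25.8 and 0.405 for TCALIF_13280 and 145 and 4.32 for TCALIF_13279. Serine proteases and carboxypeptidases had 0 calls in 40 genes and 26 negative changes, and the serine protease TCALIF_01877 had 92.6 and 38.0 in 20V and 16.8 and 22.5 in 28V (log2 change -1.57 ± 0.32, adjusted p = 0.128).

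The lists of antioxidant enzymes, cytochromes P450, sugar metabolism, moulting and lipid kinases gave no call in limma. Antioxidant enzymes had 0 of 15 called and a median of 0.13, and a gene similar to glutathione S-transferase 1 (comp42513_c0_seq1_27765), which couples glutathione to toxic compounds, had 27.9 and 40.1 in 20V and 9.90 and 25.9 in 28V (adjusted p = 0.268). Cytochromes P450, which oxidise hormones and foreign compounds, had 0 of 14 called, with 11 negative changes and a median of -0.30. The blocks differed in sign, with medians of 0.10 in block a and -0.46 in block b. Sugar uptake and metabolism had 0 of 35 called, with 29 positive and a median of 0.25, and genes of moulting and juvenile hormone had 0 of 13 called, with 7 positive and 6 negative. Of 3 phosphatidylinositol-phosphate kinases, which make signalling lipids, none was called, and TCALIF_01137 had 32.2 and 10.4 in 20V and 65.3 and 35 in 28V (log2 change 1.33 ± 0.23, adjusted p = 0.0554).

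No tissue marker was called in limma. The 5 vitellogenin genes, which encode yolk made by reproducing females, all had negative changes with a median of -0.83, and their summed value was 4269 and 9153 in 20V and 1843 and 6804 in 28V, so the treatments overlapped. Vitellogenin 1 (TCALIF_13701) had 40.8 and 183 in 20V and 22.3 and 80.3 in 28V and was called by the likelihood ratio test (adjusted p = 0.0285) but not in limma (adjusted p = 0.0832). Of 36 muscle genes, 32 had positive changes with a median of 0.19, and the sums were 23032 and 18388 in 20V and 25575 and 24353 in 28V. In 14 of the 36 both warm pools were above both cool pools, compared with 21.5% of genes with a description and 13.4% of all genes. The 3 opsins had a median change of -0.24 and the 5 sperm and cilia genes one of 0.18. The part that tissue make-up had in the changes above was not tested.

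The response can be set beside that to 28° in the nonvariable regime, 28ST vs. 20NV, which shares no library with 28V vs. 20V. The 2 tables were scaled separately, so levels are compared only within a table. In that comparison 21 of 17460 genes were called (0.12%), 20 up (0.115%) and 1 down (0.00573%), and the likelihood ratio test called 85 (0.487%), 74 up (0.424%) and 11 down (0.063%). Of the 25 genes upregulated in 28V, all were in that table, 21 had the same sign there (46.4% of all genes had a positive change) and 10 were called. Of the 8 downregulated genes 5 were in the table, 1 had the same sign and none was called.

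The change was higher in 28ST vs. 20NV in 8 of 9 small HSPs, 7 of 8 HSP70 and HSP110 genes, 2 of 3 HSP90 genes and 12 of 16 HSP40 genes and co-chaperones. It was higher there in 5 of 8 genes of endoplasmic reticulum folding and 10 of 17 chaperonin and mitochondrial genes, whose medians were close in the 2 regimes (0.84 and 0.84, 0.46 and 0.44). Of the endoplasmic reticulum list, 3 genes were called in 28ST vs. 20NV and 1 in 28V vs. 20V. XBP1 (TCALIF_09115) had 1.62 in 28ST vs. 20NV beside 1.04, and the GRP78 DNT comp32704_c0_seq2_17919 had 2.18 beside 0.98. Over all described genes the median was 0.27 in 28ST vs. 20NV and 0.08 in 28V vs. 20V, so a higher change there was not particular to chaperones. It was also found in 28 of 36 ubiquitin ligases and Lon-domain proteins, but in 1 of 12 haem and iron genes and 4 of 36 muscle genes. HSP70 gene TCALIF_04517 had 47.9 and 25.7 in 20NV and 1414 and 1560 in 28ST, a log2 change of 5.36 ± 0.28, beside 2.70 in the variable regime. For HSP90 the changes were 3.06 (comp46685_c0_seq1_33583) and 3 (TCALIF_01534), beside 1.91 and 1.85. The third HSP90 gene, comp41334_c0_seq1_26338, had 0.99 beside 1.03. The HSP40 gene comp32785_c0_seq1_17987 had 0.70 beside 1.17. The median of the 9 small HSPs was 2.11 beside 0.48, and 5 of them were called in 28ST vs. 20NV. The small HSP TCALIF_06394 had 86.0 and 46.2 in 20NV and 398 and 385 in 28ST, a log2 change of 2.61 ± 0.24 beside 0.32.

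The ClpX-like gene TCALIF_09890 had closer changes, 2.90 in 28ST vs. 20NV and 2.63 in 28V vs. 20V, and GRP78 (TCALIF_00753) had 2.35 and 1.56. The undescribed genes comp51313_c0_seq1_44507 (3.68 and 3.13), TCALIF_03376 (3.83 and 2.27) and comp47559_c0_seq5_35364 (2.98 and 1.53) were also called in both. Of the 20 genes called in 28ST vs. 20NV that the 28V vs. 20V table holds, 18 were higher in 28V, and 19 had a higher log2 change in 28ST vs. 20NV. That set was chosen by the calls in 28ST vs. 20NV. Of the 25 genes upregulated in 28V, chosen by the calls in 28V vs. 20V, 14 had the larger change in 28V vs. 20V. Their median change was 1.82 there and 1.73 in 28ST vs. 20NV.

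**Figure D4:**
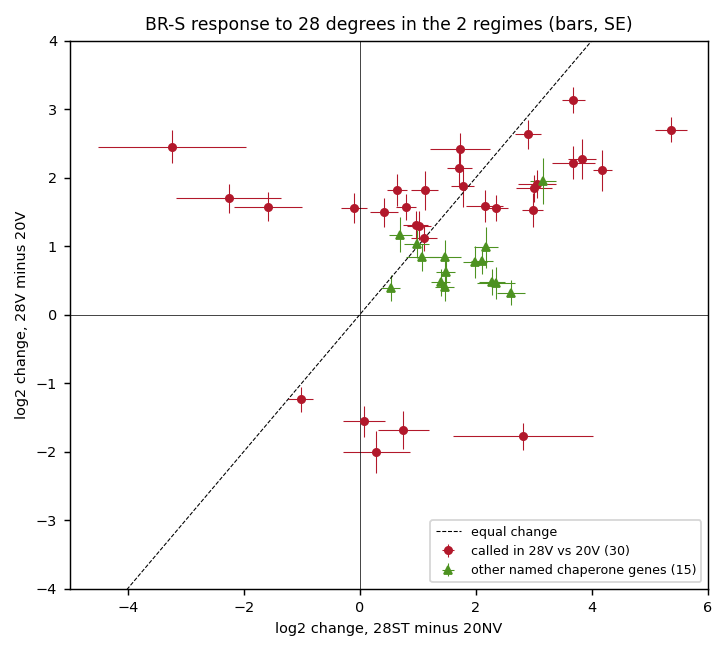
Log2 change in 28V vs. 20V (y axis) against log2 change in 28ST vs. 20NV (x axis) in BR-S, with standard errors, for the 30 of 33 DE genes present in both tables (red circles) and other named chaperone genes (green triangles), with a dashed line for equal change. HSP70 gene TCALIF_04517 lies farthest right at 5.36, and the 4 red genes with long horizontal bars are those in which the 28ST libraries differ more than 8-fold.

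The difference between the regimes was tested in 1 fit of the 8 BR-S libraries after joint scaling. Of 17097 genes, 0 passed in limma (308 at an unadjusted p under 0.05), 0 in the quasi-likelihood test (292) and 6 (0.0351%) in the likelihood ratio test, all lower in the variable regime. For HSP70 gene TCALIF_04517 the difference was -2.66 ± 0.54 (adjusted p = 0.9996). The 5 genes with the smallest p held 3 small HSPs, TCALIF_06394 (-2.29 ± 0.42), TCALIF_13715 (-1.80 ± 0.36) and TCALIF_13714 (-1.33 ± 0.25). The other 2 were the cuticle gene comp48306_c0_seq1_36978 (-3.06 ± 0.61) and the serine protease TCALIF_01877 (-3.34 ± 0.61), which had lower values in 28V than in 20V and higher values in 28ST than in 20NV. All of these had an adjusted p of 0.9996 in limma. The same fit also called 0 genes for 28V vs. 20V itself. It used a block term common to both regimes, although the block deviations of 20V and 20NV were opposed (correlation -0.35). A smaller chaperone response in the variable regime was thus neither established nor excluded for any single gene.

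Some genes upregulated in 28V had no positive change in 28ST vs. 20NV. LRSAM1 (TCALIF_05773) had 534 and 256 in 20NV and 539 and 220 in 28ST (log2 change -0.10 ± 0.22), and the difference between regimes was 1.66 ± 0.63 (adjusted p = 0.9996). TCALIF_00153 had 245 and 96.1 in 20NV and 236 and 0.135 in 28ST, TCALIF_05404 had 109 and 35.8 in 20NV and 109 and 0.607 in 28ST and comp48785_c0_seq1_38031 had 69.9 and 14.5 in 20NV and 62.2 and 0.945 in 28ST, so that the 28ST library of block b was nearly empty of all 3. That library had 37 genes more than 5-fold below the other 3 of its table. For 28V vs. 20V, 3 of these 37 were called in limma and 10 by the likelihood ratio test, against 0.188 and 0.57% of all genes. The part that spread between pools had in these calls was not tested. The deacetylase Contig5948_7492 was high in that library, with 10.1 and 0.792 in 20NV and 8.77 and 99.8 in 28ST. The fit of the regime difference without that library also called 0 genes in limma (172 at an unadjusted p under 0.05).

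The other 3 populations went through the same regime, with no library shared with BR-S. The southern population San Diego (SD-S) and the northern populations Santa Cruz (SC-N) and Bodega Bay (BB-N) gave 0 (761 at an unadjusted p under 0.05), 374 (2.04%) and 146 (0.827%) DE genes for 28V vs. 20V in limma. These counts cannot be ranked between populations. In SC-N limma took each gene's variance wholly from the trend over all genes (infinite prior degrees of freedom). The spread between a gene's own pools was thus not used there. With its own test the paper reported the fewest DE genes in SC-N. Of the 25 BR-S upregulated genes, 21 were in the SD-S table, 17 of them with the same sign (48.7% of all genes had a positive change) and none called. For SC-N 20 of 21 had the same sign (51.5%) and 10 were called, where 0.519% of all genes were called up. For BB-N 21 of 22 had the same sign (50.6%) and 4 were called, where 0.0962% were called up.

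HSP70 gene TCALIF_04517 had log2 changes of 2.37 (SD-S), 3.63 (SC-N) and 2.27 (BB-N) elsewhere, beside 2.70 in BR-S. HSP90 gene comp46685_c0_seq1_33583 had 1.6, 3.22 and 1.19, beside 1.91. The change of TCALIF_04517 in BR-S minus that in the other population was 0.33 ± 0.25 for SD-S, -0.93 ± 0.40 for SC-N and 0.43 ± 0.26 for BB-N, none past the threshold. Of the 8 downregulated genes, 7 of the 8 in the SD-S table, 2 of the 5 in the SC-N table and 3 of the 3 in the BB-N table had the same sign (51.3, 48.5 and 49.4% of all genes had a negative change). The SD-S signs did not hold within blocks, since every downregulated gene moved in opposite directions in block a and block b of that population. Contig5948_7492, for example, had 54.1 and 417 in 20V and 366 and 0.778 in 28V of SD-S (log2 change -2.57 ± 2.36). The blocks of comp42346_c0_seq1_27571 also moved in opposite directions in BB-N. Glutamine synthetase (comp44879_c0_seq1_30799) had -0.48 (SD-S), -1.47 (SC-N) and -0.40 (BB-N), and it was called in SC-N (adjusted p = 0.0227).

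**Figure D5:**
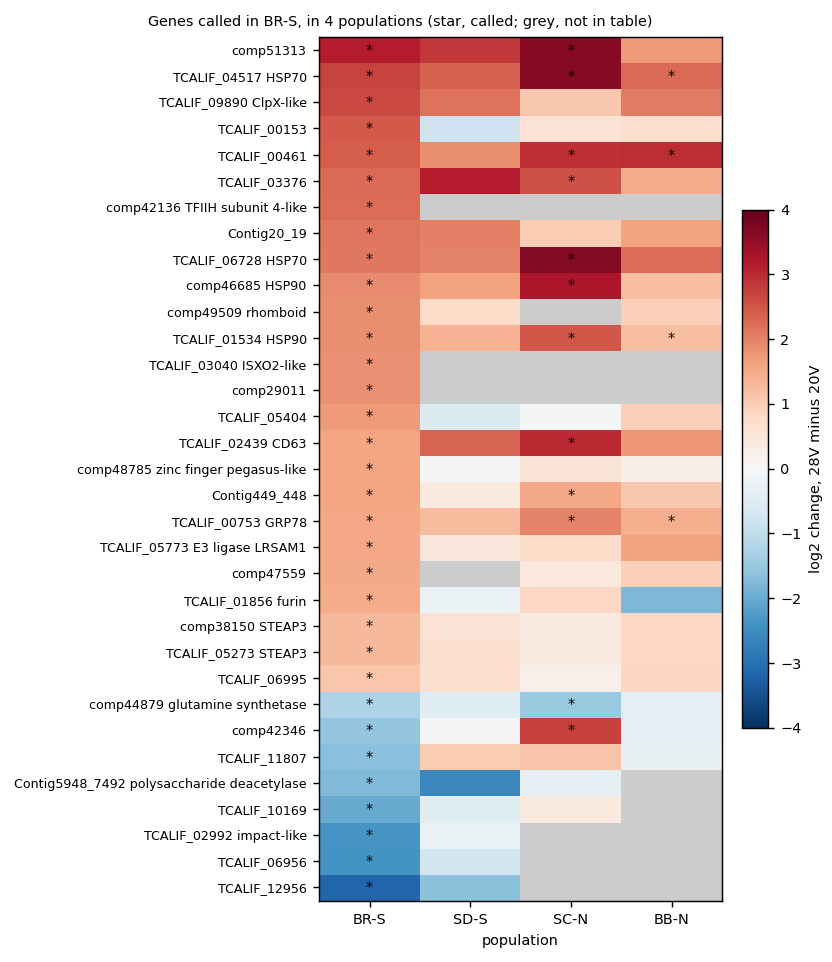
Log2 change in 28V vs. 20V for the 33 DE genes of BR-S (rows) in BR-S, SD-S, SC-N and BB-N (columns), red for higher and blue for lower in 28V, with a star where the gene was called in that population and grey where its table does not hold the gene. The HSP70, HSP90 and GRP78 rows are red in all 4 columns, while furin is red in BR-S and blue in BB-N.

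No gene passed the test of a difference in response in limma between BR-S and SD-S (0 of 16089, with 397 at an unadjusted p under 0.05), SC-N (0 of 16037, 337) or BB-N (0 of 15721, 659). The quasi-likelihood test also gave 0 for each (391, 247 and 706). The likelihood ratio test called 63 (0.392%) for SD-S, 34 with a higher change in BR-S (0.211%) and 29 with a lower one (0.18%). It called 21 (0.131%) for SC-N, 1 higher (0.00624%) and 20 lower (0.125%), and 191 (1.21%) for BB-N, 183 higher (1.16%) and 8 lower (0.0509%). The smallest p against BB-N belonged to furin (TCALIF_01856), upregulated in BR-S, whose pools of 28V were at 4.25 and 3.98 in BB-N, below both of its 20V pools there. Its difference was 3.28 ± 0.27 (unadjusted p = 2.33e-05 in limma, adjusted p = 0.357).

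Against SC-N the 5 smallest p belonged to genes that had negative changes in BR-S and positive changes in SC-N. TCALIF_06172, a hypothetical protein, had 473 and 95.2 in 20V and 70.8 and 58.5 in 28V of BR-S, and 0.209 and 11.2 in 20V and 41.3 and 99.5 in 28V of SC-N. The cuticle protein 7 gene TCALIF_00286 and comp42346_c0_seq1_27571 had the same pattern, with differences of -3.51 ± 0.56 and -4.28 ± 0.72 (adjusted p = 0.917 for all 5). Against SD-S none of the 5 genes with the smallest p was called in BR-S. TCALIF_07167, a hypothetical protein and one of these, had 12.9 and 3.25 in 20V and 20.19 and 13 in 28V of BR-S and 15.7 and 9.62 in 20V and 0.185 and 0.778 in 28V of SD-S (difference 4.36 ± 0.55, adjusted p = 0.426).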

How the data were processed

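The mRNA of pools of 100 T. californicus adults was sequenced as unstranded 100-bp reads. The authors trimmed reads, mapped them uniquely in CLC Genomics Workbench to each population's genomic and then de novo transcripts, and used edgeR with the lane as a block. Per library, the authors deposited a signal in cpm scaled by TMM. Their fold changes and p-values stood in other columns and were not used, nor were 32 columns of per-sample values in tables of other comparisons.

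Whole reads were recovered from the values by the step of 1 read (100% of values whole within 0.01 reads). The BR-S libraries held between 3646890 and 14406882 reads in the genes kept. No intervals for counting error were computed, because the tests rest on the spread between pools. With 2 pools per treatment and a block, a gene's own pools say little about its variance. In 28V vs. 20V of BR-S limma took most of that variance from the trend over all genes (prior degrees of freedom 9.59). Columns were assigned to treatments by name. The suffix stands in for the lane and was not matched to replicate numbers. With the suffix as the block, the likelihood ratio test called 66 up and 34 down for 28V vs. 20V of BR-S. For 28ST vs. 20NV it called 74 up and 11 down. The paper reported the same counts from its own likelihood ratio test with the lane as a block. The block follows the study's methods.

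The main test was limma 3.58.1 in R 4.3.3, two-sided, with log2(value + 1) as the response, the block as a term and a trend of the variance with level, and Benjamini-Hochberg adjustment over all genes of a table and a threshold of 0.05. Design alternatives were no block, no trend, pseudocounts of 0.5 and 5, a mean value of at least 10, no TMM, edgeR 4.0.16 quasi-likelihood and likelihood ratio tests, DESeq2 1.42.0, a joint fit of 8 BR-S libraries and leaving out libraries in it. Differences between regimes were fitted on jointly scaled recovered reads, and those between populations on shared genes with a block per population. The scripts were tested on simulated data.

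Named genes are all called genes with the same direction in both blocks (all 33), the genes that the study listed as shared by 4 populations, up to 4 members of each list with the smallest p, and the 5 with the smallest p in each test of a difference. Others were chosen after their values were seen. Lists were built by words in the study's descriptions, and members and lists were chosen with earlier results of these data known. None of 21180 gene IDs matched the RefSeq gene table, so names are the study's descriptions.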

Additional observations from a re-analysis of the deposited data

How the results depend on the processing

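The number of DE genes between 28V and 20V, 33 (25 up, 8 down), depended on the block and on the fit. Libraries of the same suffix did not deviate together throughout. Across 11299 genes, which are not independent replicates, the correlation of their deviations from the treatment mean was 0.35 for 20V and 28V, 0.32 for 20V and 28ST, 0.22 for 28V and 28ST and 0.29 for 20NV and 28ST, but -0.35 for 20V and 20NV and -0.28 for 28V and 20NV. With no replicate block the number of DE genes was 0, and the 33 genes had adjusted p-values from 0.244 to 0.9998. It was 4 (3 up, 1 down) with no variance trend, 19 (15 and 4) at a pseudocount of 5, 13 (12 and 1) among genes whose mean value reached 10, 9 (8 and 1) without TMM and 100 (66 and 34) in the likelihood ratio test. A pseudocount of 0.5 gave 25, the quasi-likelihood test 23 (19 up, 4 down), DESeq2 40 and the removal of Contig5617_7182, an alternative chosen after seeing the data, 27. In the joint fit of 8 libraries it was 0, also without any 1 of the 4 libraries (0 to 0, with 355 to 1435 genes at an unadjusted p under 0.05). In these joint fits the lone library of a treatment is assumed to vary like the others. All 33 genes, or the 27 to 30 that a fit held, kept their direction in every alternative. TCALIF_04517, TCALIF_09890 and comp51313_c0_seq1_44507 were called in all 9 alternatives with the block and 4 libraries, and the 2 STEAP3 genes in 3 and 1 of them.

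In 28ST vs. 20NV, 21 genes became 85 (74 up, 11 down) in the likelihood ratio test. The difference between regimes had 6 genes (0 up, 6 down) in that test and 0 in the other alternatives, the fit without 28ST of block b included, which was also chosen after seeing the data. Differences between populations had 63 (34 and 29) against SD-S, 21 (1 and 20) against SC-N and 191 (183 and 8) against BB-N in the likelihood ratio test. With no replicate block and without single BR-S libraries these were 0 to 6, 0 to 0 and 0 to 40, the highest values without 20V of block a.

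Among gene lists, no replicate block left 0 calls in HSP70, HSP90, endoplasmic reticulum folding, chaperonins, chitin metabolism, haem and iron handling and ubiquitin ligases. The likelihood ratio test called 1 small HSP, 1 HSP40, 2 in endoplasmic reticulum folding, 4 cuticle proteins, 4 in chitin metabolism, 1 serine protease, 4 in haem and iron handling, 2 ubiquitin ligases or Lon-domain proteins, 2 phosphatidylinositol-phosphate kinases and 1 vitellogenin. Haem and iron handling had 0 calls at either pseudocount, and at a pseudocount of 5 HSP70 had 1 and ubiquitin ligases 0. At that pseudocount, medians were 0.60 for HSP70, 0.38 for chaperonins, 0.12 for ubiquitin ligases and 0.090 for sperm and cilia, the last 0.29 in the likelihood ratio test. There were 2 pools per treatment and 3646890 reads in the genes kept of the shallowest library. Changes of genes with a few reads, such as TCALIF_12956 with 4 reads in a 28V library, are the least precise.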
